A study of Mus musculus with 4 samples.

Results

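Eph receptors, ephrins, semaphorins and plexins are cell-surface and secreted proteins that steer cells by contact or at short range. Genes were taken by their symbols (Epha, Ephb, Efna, Efnb, Sema and Plxn genes), and 49 of the 17098 genes named on the array matched. They were 9 EphA receptors, 4 EphB receptors, 4 ephrin-A ligands, 3 ephrin-B ligands, 20 semaphorins and 9 plexins. Each gene was read from 1 probe set, the brightest on average where there were several. A floor of 3.19 on the log2 scale, the 40th percentile of all gene values, was set as the least signal to describe, and 36 of the 49 were above it on at least 1 array.

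The study measured gene expression in mouse embryonic stem cells that had been grown into embryoid bodies, aggregates that differentiate on their own, first in hanging drops and then in suspension. There were 4 groups with 1 array each: Snai1 knockout Flk1+ cells, control (labelled F/F) Flk1+ cells, Snai1 knockout Flk1- cells and control Flk1- cells. Flk1, the VEGF receptor encoded by Kdr, marks mesoderm that gives rise to blood and vessels, and both fractions of both lines came from embryoid bodies dissociated and sorted with an antibody against it. Snai1 encodes a zinc finger protein that represses epithelial genes such as Cdh1. The labels do not say how the knockout was made, how many clones stand behind each line, or whether both fractions of a line came from the same culture. They give day 4 for all groups, except that the source name of the knockout Flk1- sample gives day 5. The comparisons without that array are knockout against control in Flk1+ cells and Flk1+ against Flk1- in control cells.

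Each group had a single array, so the spread between replicates is unknown, no test or p-value is given, and the number of arrays limits the precision. A difference was counted when it was at least 1 on the log2 scale (2-fold) in a gene above the floor on at least 1 of the arrays compared. As a rough scale, the 6143 genes below the floor on all arrays had differences with an SD of 0.166 to 0.195 over the 4 comparisons. In sorted bulk cells, more cells that express a gene and more RNA per cell cannot be told apart.

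Eph receptors are receptor tyrosine kinases that bind ephrins on the neighbouring cell, and signals run into both cells. Ephrin-A ligands are held to the membrane by a lipid anchor and ephrin-B ligands cross it, and the pairs are known for keeping cell populations apart and for the division of arteries (Efnb2) from veins (Ephb4). Semaphorins bind plexins, which inactivate small GTPases inside the cell. Secreted class 3 semaphorins mostly need neuropilins as co-receptors, whereas Sema3e binds Plxnd1, a plexin of endothelial cells, directly.

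In at least 1 of the 4 comparisons, 5.9% of the 10955 genes above the floor were 2-fold apart. Of the 36 genes of these families above the floor, 4 were: Plxnd1, Sema5a, Sema3a and Sema4b. The RefSeq promoter table (GRCm38.p6) held 5 windows for these 4 genes, each of 250 bases before to 50 bases after an annotated start. They are shown because 3 of the genes were 2-fold higher and 1 was 2-fold lower in Flk1+ than in Flk1- knockout cells. In control cells the Sema3a difference of 0.90 was under the 2-fold rule. Capitals mark GGGCGG (the GC box) and CCGGAA (core letters of ETS factor sites), each on either strand, and each window is written 5′ to 3′ along the strand named.
Plxnd1, chr6:115994956-115995255, minus strand: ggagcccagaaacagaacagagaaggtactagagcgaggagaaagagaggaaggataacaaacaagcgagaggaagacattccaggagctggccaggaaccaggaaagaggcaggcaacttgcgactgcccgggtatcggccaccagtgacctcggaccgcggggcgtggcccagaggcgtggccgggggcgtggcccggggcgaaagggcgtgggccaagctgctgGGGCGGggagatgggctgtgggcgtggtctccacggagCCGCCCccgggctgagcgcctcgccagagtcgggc
Sema5a, chr15:32244563-32244862, plus strand: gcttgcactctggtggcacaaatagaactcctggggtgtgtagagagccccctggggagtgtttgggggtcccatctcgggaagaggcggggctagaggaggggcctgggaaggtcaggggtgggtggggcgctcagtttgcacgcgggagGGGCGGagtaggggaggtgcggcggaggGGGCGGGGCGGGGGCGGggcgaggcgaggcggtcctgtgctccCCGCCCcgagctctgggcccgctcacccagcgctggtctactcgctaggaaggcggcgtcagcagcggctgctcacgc
Sema3a, chr5:13396534-13396833, plus strand: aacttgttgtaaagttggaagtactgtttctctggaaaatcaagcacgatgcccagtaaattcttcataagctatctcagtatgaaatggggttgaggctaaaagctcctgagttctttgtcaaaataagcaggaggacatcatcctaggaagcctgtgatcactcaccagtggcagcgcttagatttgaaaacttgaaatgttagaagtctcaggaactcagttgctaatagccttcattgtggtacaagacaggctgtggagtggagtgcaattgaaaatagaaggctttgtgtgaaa
Sema4b, chr7:80186620-80186919, plus strand: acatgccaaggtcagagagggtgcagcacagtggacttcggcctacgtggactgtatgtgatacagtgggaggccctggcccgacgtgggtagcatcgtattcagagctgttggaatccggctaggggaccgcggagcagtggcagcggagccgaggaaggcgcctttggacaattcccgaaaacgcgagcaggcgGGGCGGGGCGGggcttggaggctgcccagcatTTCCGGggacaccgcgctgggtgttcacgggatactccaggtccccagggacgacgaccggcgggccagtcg
Sema4b, chr7:80198338-80198637, plus strand: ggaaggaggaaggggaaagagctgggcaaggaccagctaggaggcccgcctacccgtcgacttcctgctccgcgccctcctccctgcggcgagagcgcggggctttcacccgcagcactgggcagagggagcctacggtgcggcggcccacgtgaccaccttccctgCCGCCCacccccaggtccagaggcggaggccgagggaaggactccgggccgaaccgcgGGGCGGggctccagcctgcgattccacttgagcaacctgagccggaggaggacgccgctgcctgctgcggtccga

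The Sema3a window stood apart in base composition, with 41.3% G and C and 2 CG dinucleotides. The other 4 windows had 65.3% to 71.7% and 23 to 28, and the median over all 32851 promoter windows was 52.7% and 7. GGGCGG or its complement CCGCCC was in 4 of the 5 windows, all but that of Sema3a, against 35.7% of all windows. Among the 56 windows of 43 members that matched the table, 42 (75.0%) held it. This motif was chosen after the windows had been read. CCGGAA or TTCCGG was in 1 of the 5 windows, the first of Sema4b, against 14.9% of all windows. The letters CAGGTG or CACCTG, the E-box that Snai1 is known to bind, were in 0 of the 5 windows, in 7 of the 56 member windows (12.5%) and in 20.2% of all windows. A match of letters is no evidence of binding, and a missing match says only that these letters are not in the window.

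The labels were checked on Kdr and Snai1. Kdr was at 9.03 in knockout and 8.92 in control Flk1+ cells, and at 3.88 in knockout and 4.55 in control Flk1- cells, and so was high on both Flk1+ arrays. Snai1 was below the floor on all 4 arrays, at 1.88, 2.56, 1.94 and 2.42 in the same order, so its values do not check the genotype. Of 12 endothelial and hemangioblast markers, 8 were 2-fold or more higher in Flk1+ than in Flk1- cells in each genotype, and their summed log2 levels were 64.3, 67.8, 38.3 and 39.4 in the same order. The summed levels of 9 pluripotency markers were 42.9, 31.5, 62.1 and 54.8, and those of 10 epithelial markers were 68.2, 60.5, 73.1 and 69.3. Those of 8 erythroid markers were 21.2, 31.0, 21.2 and 53.7, and those of 10 cardiac mesoderm markers were 43.2, 57.2, 38.0 and 57.7. Of 10 feeder fibroblast markers, 6 were below the floor on all arrays, and 3 of the other 4 were 2-fold lower in knockout than in control Flk1+ cells, with summed levels of 29.4, 36.2, 26.8 and 29.7. Summed levels were 44.0, 42.9, 43.6 and 45.2 for 9 endoderm markers and 33.4, 31.5, 33.9 and 33.8 for 8 neural markers. The part of these cell types in the differences below was not tested.

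**Figure D1:**
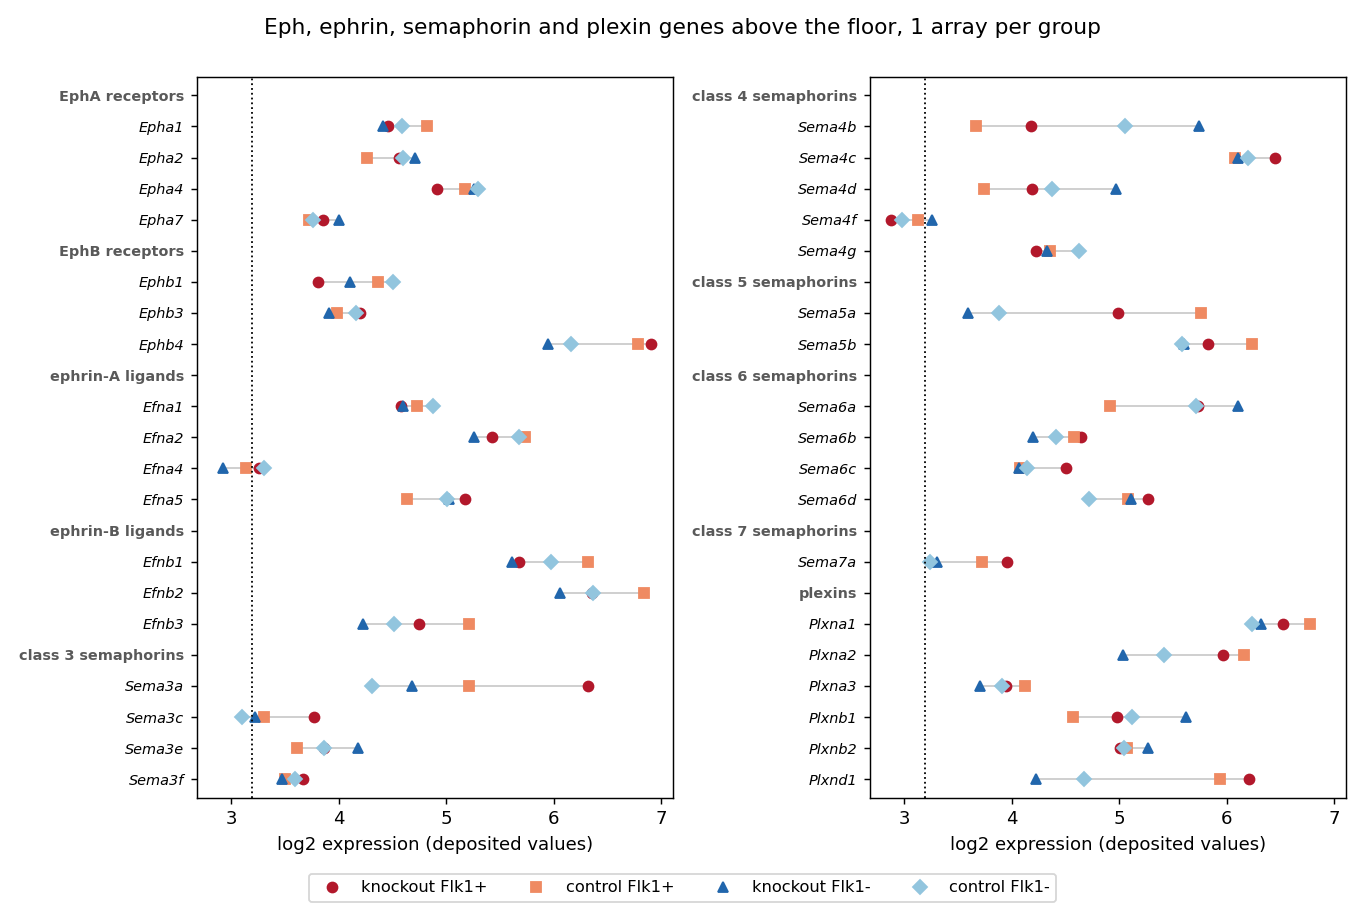
Log2 expression (horizontal axis) of the 36 Eph, ephrin, semaphorin and plexin genes above the floor, by family, with 1 point for each of the 4 arrays and a grey line over their range. The dotted line is the floor of 3.19. Plxnd1 and Sema5a have both Flk1+ points to the right of both Flk1- points, as do others such as Sema3a, Ephb4 and Plxna2. Sema4b has them to the left, as do Sema4d and Plxnb1. The share of all genes with such a separation was not counted.

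Most of these genes ranged over less than 2-fold between the arrays, and some semaphorins and plexins ranged further. The range over the 4 arrays had a median of 0.55 for the 36 genes, against 0.39 for the 10955 genes above the floor. It reached 1 or more in 8 of the 36 (22.2%), against 8.05% of all genes above the floor. Those 8 were Sema5a, Sema4b, Sema3a, Plxnd1, Sema4d, Sema6a, Plxna2 and Plxnb1, with ranges from 2.16 to 1.05. All are semaphorins or plexins, and the widest range of an Eph receptor or ephrin was 0.98, in Efnb3.

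The sort comparison asked which of these genes go with Flk1. In knockout cells 3 of the 36 genes above the floor in the comparison were 2-fold higher in Flk1+ than in Flk1- cells, against 1.62% of 10688 genes, and 1 was lower, against 2.17%. In control cells 2 of 35 were higher, against 1.2% of 10622 genes, and 1 was lower, against 1.51%. The median difference over the 49 genes was 0.17 in knockout and 0.08 in control cells, against -0.01 and 0.01 over all 17098 genes.

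Plxnd1, the receptor of Sema3e, was at 6.21 in knockout and 5.94 in control Flk1+ cells, and at 4.23 in knockout and 4.67 in control Flk1- cells. Both Flk1+ arrays were above both Flk1- arrays, as in other members such as Ephb4 and Plxna2. Plxnd1 was 3.96-fold higher in Flk1+ cells of the knockout (1.99 on the log2 scale) and 2.40-fold higher in those of the control (1.27). Sema5a, a membrane semaphorin with thrombospondin repeats, was at 4.99 in knockout and 5.76 in control Flk1+ cells, and at 3.60 in knockout and 3.88 in control Flk1- cells. It too was high on both Flk1+ arrays, with the control array the higher one. Its difference between Flk1+ and Flk1- cells was 1.39 in the knockout (2.62-fold) and 1.88 in the control (3.68-fold).

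Sema3a, a secreted ligand that acts through Nrp1, was at 6.31 in knockout and 5.21 in control Flk1+ cells, and at 4.68 in knockout and 4.31 in control Flk1- cells. The knockout Flk1+ array stood above the other 3, and the control Flk1+ array above both Flk1- arrays. In knockout cells it was 3.10-fold higher in the Flk1+ fraction (1.63), and in control cells its difference of 0.90 was under the 2-fold rule.

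Sema4b, a membrane semaphorin, ran the other way and was at 4.18 in knockout and 3.67 in control Flk1+ cells, and at 5.74 in knockout and 5.06 in control Flk1- cells. It was 2.95-fold lower in Flk1+ cells of the knockout (-1.56) and 2.62-fold lower in those of the control (-1.39). Sema4d, another class 4 semaphorin, was at 4.19, 3.74, 4.98 and 4.38 in the same order, and Plxnb1, its receptor, at 4.98, 4.57, 5.62 and 5.12. The probe sets used for these 3 genes were set side by side after their values were seen. They were highest in knockout Flk1- cells and lowest in control Flk1+ cells, as were the summed pluripotency and epithelial marker levels given above. Sema6a, Epha2, Sema3e and Epha7 had the same order in the probe sets used. Sema6a also kept it in its other probe sets, where a value of 2.96 in control Flk1+ cells was below the floor. The other probe sets of Sema4b, Sema4d and Plxnb1 did not share that order. That of Plxnb1 was at 4.70, 4.22, 4.68 and 4.61, that of Sema4b was at 4.44, 4.11, 4.81 and 4.81, and that of Sema4d was below the floor. Sema4d and Plxnb1 were under the 2-fold rule in each comparison.

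**Figure D2:**
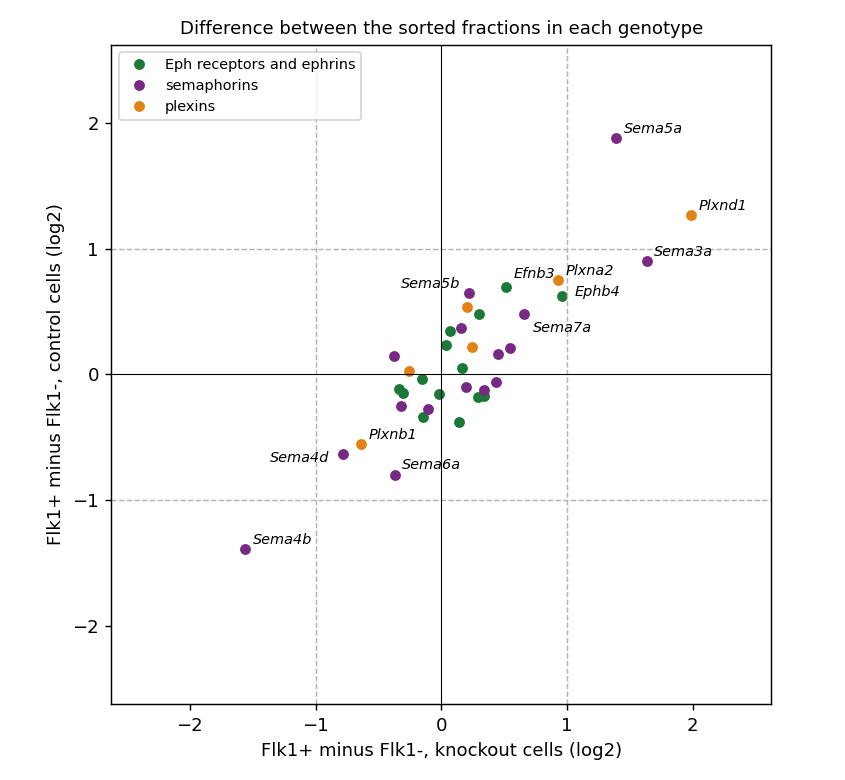
Flk1+ minus Flk1- difference on the log2 scale in knockout cells (horizontal axis) and in control cells (vertical axis) for the 36 genes above the floor, with 1 point per gene and dashed lines at the 2-fold rule. Plxnd1 and Sema5a are past 1 on both axes and Sema4b is past -1 on both.

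Across the 36 genes the sort differences of the genotypes, which share no array, had a Pearson correlation of 0.86 and a Spearman rank correlation of 0.74, and 28 had the same sign. Over the 10955 genes above the floor the correlations were 0.62 and 0.46, and 7084 had the same sign. This is a correlation across genes, which are not independent replicates, and the labels do not say what the fractions of a line share beyond the sort.

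Genes just short of the 2-fold rule included the vein receptor Ephb4, at 6.91 in knockout and 6.78 in control Flk1+ cells, and at 5.94 in knockout and 6.16 in control Flk1- cells. Its differences between the fractions were 0.96 in the knockout and 0.62 in the control. Plxna2, a receptor of Sema6a, had sort differences of 0.93 in the knockout and 0.75 in the control. Ephb4 and Plxna2 passed the 2-fold rule in knockout cells after quantile normalization, cyclic loess or centring on the median of genes above the floor. In each, 5 of the members were then higher and 1 lower. The counts over all genes moved too, from 173 higher and 232 lower of 10688 to 194 and 187 of 10711 after quantile normalization. They were 194 and 191 of 10711 after cyclic loess, and 223 and 147 of 10813 after centring. The artery ligand Efnb2 was at 6.36, 6.84, 6.06 and 6.37 in the same order of arrays. All 3 ephrin-B genes were higher in Flk1+ cells in both genotypes, under the 2-fold rule, with median differences of 0.30 in the knockout and 0.48 in the control that kept their sign under each scaling tried. Of the 10955 genes above the floor, 4584 were higher in Flk1+ cells in the knockout and 5278 in the control. In 1 of the 3 probe sets of Efnb1 the difference in knockout cells was -0.11. All 3 genes had their highest value on the control Flk1+ array.

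The genotype comparison asked how these genes differ when Snai1 is lost. In Flk1+ cells 1 of 35 genes was 2-fold higher in the knockout, against 0.873% of 10655 genes, and 0 were lower, against 0.976%. In Flk1- cells 0 of 36 were higher, against 0.389% of 10533 genes, and 0 were lower, against 0.949%. The median difference over all 49 genes was 0.01 in Flk1+ and -0.07 in Flk1- cells, against -0.01 and 0.02 over all 17098 genes.

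The gene past the rule was Sema3a, which was 2.14-fold higher in knockout than in control Flk1+ cells (1.10) and differed by 0.37 in Flk1- cells. The Gapdh control probe set at the 5′ end was at 9.25 on the knockout and 8.67 on the control Flk1+ array, while the one at the 3′ end was at 10.7 on both, and what this has to do with the Sema3a difference was not tested. The Sema3a receptor subunit Nrp1, which also binds VEGF, was at 7.26 in knockout and 8.33 in control Flk1+ cells, and at 6.49 in knockout and 7.62 in control Flk1- cells. Nrp1 was thus lower in the knockout in both fractions, with differences of -1.07 in Flk1+ and -1.13 in Flk1- cells. Its 3 probe sets ran from -1.26 to -1.07 in Flk1+ cells and from -1.23 to -1.13 in Flk1- cells. After cyclic loess the difference in Flk1+ cells was -0.99, just under the rule.

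Below the 2-fold rule, Sema6a, a membrane ligand of plexin-A receptors, was at 5.74 in knockout and 4.92 in control Flk1+ cells, and at 6.11 in knockout and 5.71 in control Flk1- cells. It was lowest on the control Flk1+ array, 0.82 below the knockout array of that fraction. A second probe set of Sema6a differed by 1.07 there. Sema5a differed by -0.77 between knockout and control Flk1+ cells and by -0.28 in Flk1- cells. A second probe set of Sema5a differed by -1.14 in Flk1- cells, with its knockout value of 2.74 below the floor.

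The 3 ephrin-B ligands had values below those of the control in both knockout fractions, with 0 of 3 past the 2-fold rule. Their median difference was -0.48 in Flk1+ and -0.31 in Flk1- cells, and it stayed negative under each scaling tried. Of the 10955 genes above the floor, 6239 had a negative difference in Flk1+ and 4787 in Flk1- cells. Efnb1, an X-linked ephrin, was at 5.68 in knockout and 6.32 in control Flk1+ cells, and at 5.61 in knockout and 5.97 in control Flk1- cells. Its 3 probe sets all differed in the same direction, from -0.85 to -0.57 in Flk1+ and from -0.80 to -0.37 in Flk1- cells. The probe set that gave -0.80 was at 2.64 in knockout Flk1- cells, below the floor. For Efnb2, 1 of its 4 probe sets was higher in knockout Flk1+ cells, by 0.20.

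**Figure D3:**
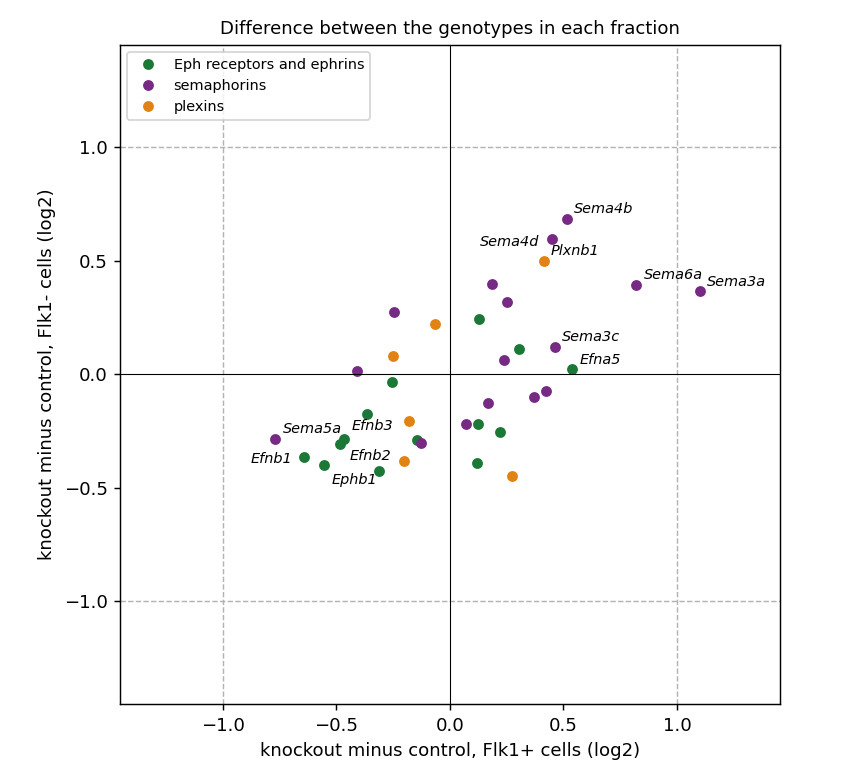
Knockout minus control difference on the log2 scale in Flk1+ cells (horizontal axis) and in Flk1- cells (vertical axis) for the 36 genes above the floor, with 1 point per gene and dashed lines at the 2-fold rule. Sema3a is the only point past a dashed line, and the 3 ephrin-B genes lie in the lower left.

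The difference of differences subtracts the Flk1- value of knockout minus control from the Flk1+ value. Here 0 of 36 genes reached 1 in either direction, against 0.749% of 10955 genes on the positive side and 0.831% on the negative side. The values furthest from 0 were 0.73 for Sema3a and 0.72 for Plxnd1. Plxnd1 was 0.27 higher in knockout than in control Flk1+ cells and differed by -0.45 in Flk1- cells. Knockout minus control had opposite signs in the fractions for 12 of the 36 genes. It had the same sign for 24 of the 36, against 5736 of the 10955 genes above the floor. Its Pearson and Spearman correlations between the fractions were both 0.60 across the 36, against 0.39 and 0.17 across all genes above the floor.

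Among the EphA receptors, Epha1, Epha2, Epha4 and Epha7 were above the floor on all 4 arrays. In the probe sets used, their differences in the 4 comparisons were all between -0.37 and 0.30. Another probe set of Epha7 differed by 0.63 in Flk1+ and 0.60 in Flk1- cells between knockout and control, with control values below the floor. Another of Epha1 had sort differences of -0.52 in knockout and -0.35 in control cells, with Flk1+ values below the floor. Epha2, a receptor of Efna1 found on epithelial cells, was at 4.56 in knockout and 4.26 in control Flk1+ cells, and at 4.71 in knockout and 4.60 in control Flk1- cells. Epha4, which acts at hindbrain segment borders, was at 4.92, 5.17, 5.26 and 5.29 in the same order. Ephb1 was at 3.81, 4.36, 4.11 and 4.51, and Ephb3, known for cell positioning in the gut, at 4.20, 3.98, 3.91 and 4.16.

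All 4 ephrin-A ligands were above the floor on at least 1 array, and their differences lay between -0.42 and 0.54. Efna5 gave the highest of these, at 5.17 in knockout and 4.63 in control Flk1+ cells, but its second probe set differed by -0.12. Efna1 and Efna2 differed by -0.15 and -0.31 in Flk1+ cells and by -0.29 and -0.42 in Flk1- cells between knockout and control. Efna4 was near the floor, with a highest value of 3.31.

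Of the class 3 semaphorins, Sema3c, Sema3e and Sema3f were above the floor beside Sema3a. Sema3e, the ligand of Plxnd1, was at 3.86 in knockout and 3.61 in control Flk1+ cells, and at 4.18 in knockout and 3.86 in control Flk1- cells. Its sort differences were -0.32 in the knockout and -0.25 in the control, while those of Plxnd1 were positive. A second probe set of Sema3e differed by -1.12 between the knockout fractions, with values below the floor on 3 of the 4 arrays. Sema3c, a ligand known from the cardiac outflow tract, was at 3.77, 3.31, 3.22 and 3.10 in the same order, close to the floor. Sema3f, a ligand for Nrp2, was at 3.67, 3.50, 3.47 and 3.60.

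Among the other membrane semaphorins, Sema4c, a ligand of Plxnb2, was at 6.45 in knockout and 6.08 in control Flk1+ cells, and at 6.10 in knockout and 6.20 in control Flk1- cells. Sema5b was at 5.82, 6.23, 5.60 and 5.59 in the same order, and so was highest on the control Flk1+ array, as Sema5a was. Sema6d, which in chick heart acts through a plexin-A1 receptor that associates with Flk1, was at 5.27, 5.09, 5.11 and 4.72. Sema7a, a lipid-anchored semaphorin, was at 3.96, 3.72, 3.31 and 3.24, with both Flk1+ arrays above both Flk1- arrays. In the second probe set of Sema7a, at 3.49, 3.21, 3.28 and 3.08, they overlapped. Sema4g, Sema6b and Sema6c had differences between -0.30 and 0.45.

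Among the plexins, Plxna1 was at 6.52 in knockout and 6.78 in control Flk1+ cells, and at 6.32 in knockout and 6.24 in control Flk1- cells. Plxna2 was at 5.97, 6.17, 5.03 and 5.42 in the same order, and all 4 of its probe sets were higher in Flk1+ cells in both genotypes, by 0.36 to 0.93. Plxna3 and Plxnb2 had differences between -0.26 and 0.24.

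The floor decided which genes were described. Sema4f and Efna4 were just above it, with highest values of 3.26 and 3.31. Just below it were Plxna4 and Epha3, with highest values of 3.11 and 3.00. The 13 genes below it on all arrays were Epha3, Epha5, Epha6, Epha8, Epha10, Ephb6, Plxna4, Plxnb3, Plxnc1, Sema3b, Sema3d, Sema3g and Sema4a.

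Of the 49 genes, 30 had several probe sets, and these did not always give the same size of difference. Plxnd1 had 1 probe set, so its values have no such check. For Sema5a, 3 of the 4 probe sets were above the floor on at least 1 array, and their sort differences ran from 1.14 to 1.80 in knockout and from 0.80 to 1.88 in control cells. Of these probe sets, those not used for the values above were at 2.74 and 2.98 in knockout Flk1- cells, below the floor. The 3 probe sets of Sema3a differed by 0.43 to 1.10 between knockout and control Flk1+ cells, all in the same direction, and when its probe sets were averaged Sema3a differed by 0.70 and 0 of the 49 genes passed the rule. The second probe set of Sema4b had sort differences of -0.37 in knockout and -0.70 in control cells, and the average of both probe sets gave Sema4b a sort difference of -0.96 in knockout cells, under the rule.

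**Figure D4:**
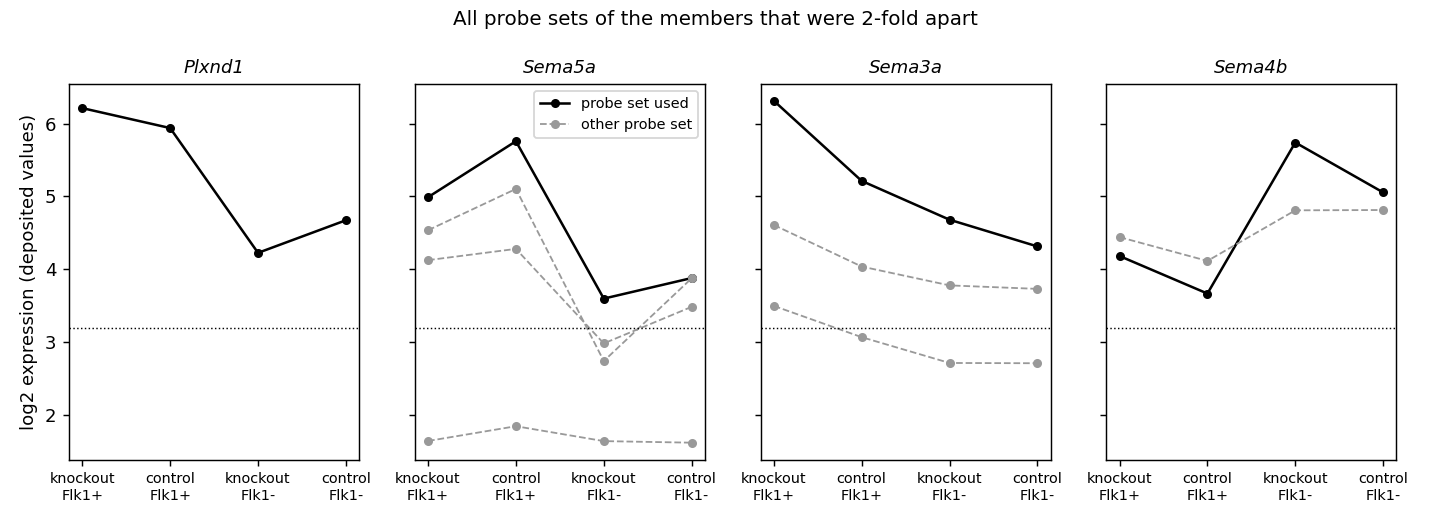
Log2 expression (vertical axis) of every probe set of Plxnd1, Sema5a, Sema3a and Sema4b on the 4 arrays, with the probe set used in black and the others in grey. The dotted line is the floor of 3.19, and the probe sets of Sema3a are highest on the knockout Flk1+ array.

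Partner genes were taken from lists of 9 co-receptors, 25 plexin effectors and 27 Eph and ephrin effectors. Of these 61 genes, 56 were named on the array, 49 were above the floor on at least 1 array, and 5 were 2-fold apart in at least 1 comparison, against 5.9% of all genes above the floor. The co-receptors held 2 of the 5, Nrp1 and L1cam. L1cam, an adhesion protein that joins Nrp1 in the Sema3a receptor, was at 4.18 in knockout and 5.06 in control Flk1+ cells, and at 3.38 in knockout and 3.87 in control Flk1- cells, and was 1.19 higher in control Flk1+ than in control Flk1- cells. The second of its 2 probe sets was below the floor on all arrays, and averaging both gave 0.69. Nrp2, the co-receptor of Sema3f, was at 6.19, 6.03, 5.25 and 5.25 in the same order.

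**Figure D5:**
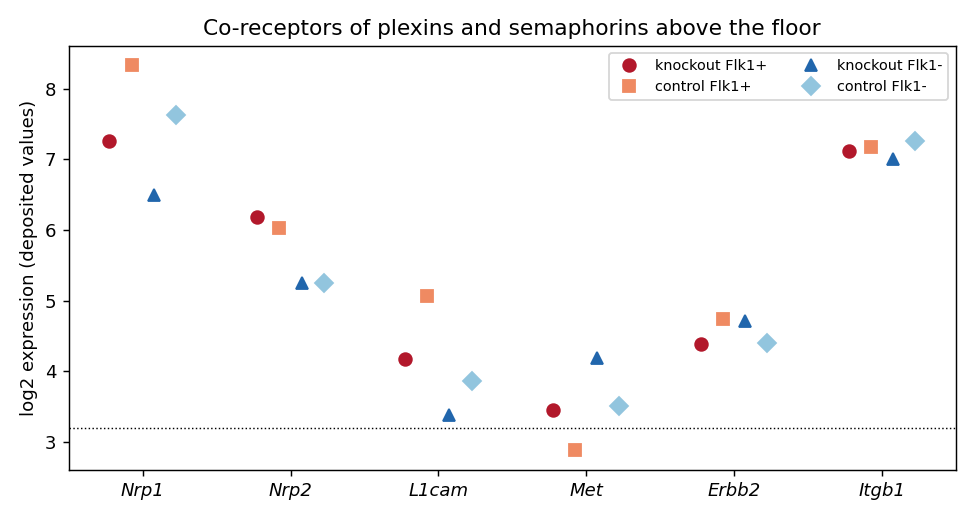
Log2 expression (vertical axis) of the 6 co-receptor genes above the floor, with 1 point for each of the 4 arrays and a dotted line at the floor. Both knockout points of Nrp1 lie below both control points, and both Flk1+ points of Nrp2 lie above both Flk1- points.

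The effector lists held the other 3. Vav3, a guanine nucleotide exchange factor that acts below Eph receptors, was at 6.43 in knockout and 6.47 in control Flk1+ cells, and at 4.96 in knockout and 4.96 in control Flk1- cells. Its sort differences were 1.48 in the knockout and 1.51 in the control. Without probe sets ending in _s_at or _x_at, the brighter of the 2 remaining probe sets of Vav3, both below the floor on all arrays, gave -0.0173 in the knockout and 0.25 in the control, and the dimmer gave 1.05 and 1.13. Kalrn, an exchange factor of EphB signalling, was at 4.74 in knockout and 5.97 in control Flk1+ cells, and at 4.68 in knockout and 5.60 in control Flk1- cells. Its difference in Flk1+ cells was -1.23, but the other 6 of its 7 probe sets were below the floor on all arrays, and averaging all 7 gave -0.31. Pard6b, a polarity protein whose family binds ephrin-B1 in frog embryos, was at 6.18 in knockout and 7.36 in control Flk1+ cells, and at 6.84 in knockout and 7.27 in control Flk1- cells. Its 2 probe sets differed by -1.18 and -1.20 in Flk1+ cells. Of the 22 plexin effectors named on the array, 20 were above the floor and 0 passed the rule in any of the 4 comparisons, against the same 5.9% of all genes.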

How the data were processed

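Expression was measured on 4 Affymetrix arrays, 1 per group, from 50 ng of total RNA amplified to cDNA and labelled with biotin, per the labels' protocols. The authors deposited log2 values per probe set, and RMA and limma are named in the submitters' processing notes, with no version or role. The deposited log2 values were used as they stand. Of 45141 probe sets, 104 controls were left out, 28898 were paired with 1 gene (17098 genes), 551 with several genes and 15588 with none in the annotation used here, and only the first kind was named. All 49 members matched RefSeq by gene identifier and symbol. Genes with several probe sets took the one with the highest mean.

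Members, partner lists and marker lists were chosen with earlier results of these data known. By rule, members 2-fold apart in any comparison or among the highest by level are given with their 4 values, the others by ranges and counts, and partner genes are named if 2-fold apart. Further members given with 4 values, and Nrp2, were chosen after their values were seen. Differences of log2 values were computed in Python 3.11.15 and pandas 2.3.3, with limma 3.58.1 in R 4.3.3 for the normalizations tried as alternatives. The comparisons share arrays in part, so they are not independent. Alternatives were size rules of 1.5-fold and 3-fold, other floors, quantile normalization, cyclic loess (span 0.3, 3 rounds), centring on the median, values set to the floor, averaged probe sets, and leaving out those whose name ends in _s_at or _x_at.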

Additional observations from a re-analysis of the deposited data

How the results depend on the processing

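At the 1.5-fold rule, 4 members were apart between knockout and control in Flk1+ cells, against 347 higher and 471 lower of 10655 genes. In Flk1- cells 2 were apart, against 313 higher and 267 lower of 10533 genes. Between the fractions, 9 members were apart in knockout cells, against 465 higher and 1133 lower of 10688 genes. In control cells 10 were apart, against 370 higher and 506 lower of 10622 genes. The difference of differences held 2, against 431 positive and 761 negative of 10955 genes. At the 3-fold rule the count was 0 for the genotypes in Flk1+ cells, against 26 higher and 33 lower of 10655 genes. For the fractions it was 2 in knockout cells (Plxnd1 and Sema3a), against 57 higher and 51 lower of 10688 genes. In control cells it was 1 (Sema5a), against 47 higher and 55 lower of 10622 genes. When the probe sets of each gene were averaged, the genotype count in Flk1+ cells was 0, against 71 higher and 76 lower of 10660 genes. The other total counts per comparison were within 1.5 times those reported. By direction, the 3 genes higher in Flk1+ than in Flk1- knockout cells were 5 after quantile normalization, cyclic loess or centring. Over all genes the number higher was 173, and it became 194, 194 and 223 in that order. With averaged probe sets the 1 lower gene, Sema4b, was 0, and the number lower over all genes was 155 in place of 232. Among the called differences of members and partner genes under these alternatives, only the sort difference of Vav3 in knockout cells changed sign (-0.0173). That was without probe sets ending in _s_at or _x_at, which left Vav3 with probe sets below the floor. Centring moved the median of all genes above the floor from -0.07 to 0.09 for Flk1+ minus Flk1- in knockout cells. The next probe set by mean, chosen after seeing the data, gave 0.57 for Sema3a between the genotypes in Flk1+ cells, 0.83 for Sema3a between the knockout fractions, and -0.37 and -0.70 for Sema4b between the fractions in knockout and control cells, all under the 2-fold rule. No paired analysis was possible because each group has 1 array, and for the same reason no replicate could be left out. Values near the floor carry little signal over background, which limits Efna4, Sema3c, Sema4f and Sema7a.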
